A study of Mus musculus with 12 samples.

Results

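The comparison set 0.1 µM CDDO-Me against 15 µM DMF in VC1 cells, a line from a lung adenocarcinoma of a female A/J mouse, 6 h after the compounds were added. CDDO-Me is the methyl ester of a synthetic oleanane triterpenoid, also known as bardoxolone methyl, and DMF is dimethyl fumarate. Samples were taken by their titles, 3 CDDO-Me arrays and 3 DMF arrays, so 6 of the 12 Illumina mouse whole-genome arrays in the study entered the tests. The other arrays held cells given DMSO, the solvent, or 0.05 µM CDDO-Im, the imidazolide of the same triterpenoid. The titles and the treatment protocol give 0.1 µM for CDDO-Me, whereas the design text of the series gives that dose to CDDO-Im and lists no CDDO-Me; the titles were followed. All groups were of the same line, grown in serum-containing medium and harvested after the same time. Whether replicates came from separate cultures is not stated in the labels; p-values therefore reflect variation among these arrays, which may be technical. The compounds were given at different doses and at 1 time point, so each difference is between these treatments as given and not between the compounds at equal dose.

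CDDO-Me and DMF are electrophiles that react with cysteines, among them those of KEAP1, the adaptor that marks the transcription factor NRF2 for destruction. When KEAP1 is modified, NRF2 accumulates, pairs with small MAF proteins and switches on genes for glutathione synthesis, quinone and carbonyl reduction, heme breakdown and iron handling. BACH1, a repressor that heme displaces from DNA, occupies many of the same antioxidant response elements. Triterpenoids of this type are also known for acting on inflammatory signalling through NF-kB and STAT3.

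Of 12340 genes tested, 233 had a higher signal with CDDO-Me than with DMF and 302 a lower one, which is 1.89% and 2.45% of the genes, at an adjusted p under 0.05 (limma, two-sided, Benjamini-Hochberg over all genes tested). The difference between the treatments was small for most of these genes: 346 of the 535 differed by under 1.5-fold and 40 by over 2-fold, 11 higher and 29 lower. The largest fitted differences were 2.48 ± 0.12 on the log2 scale for Hmox1 and -2.51 ± 0.07 for Ivl (SE), which was not detected with CDDO-Me and differed by -1.52 without background correction. The 3 CDDO-Me arrays and the 3 DMF arrays did not overlap for 523 of the 535 called genes (97.8%) and for 23.1% of all genes tested. Each chip held arrays of both treatments, 1 against 1 on chip 1 and 2 against 2 on chip 2. All 535 genes differed in the same direction on both, as did 7854 of all 12340 genes tested. The calls were made from these same arrays, so neither count is separate support for them. Within chip 2 alone 100 genes were called, and 98 of them had the same sign on chip 1, whose arrays did not enter that fit; their median size was 0.91 on chip 2 and 0.88, in the chip 2 direction, on chip 1. With any 1 of the 6 arrays left out, between 35 and 107 genes were called higher and between 65 and 156 lower, and 76 genes, 26 higher and 50 lower, were called under all 6 omissions. In a fit of all 12 arrays, whose spread includes the DMSO and CDDO-Im arrays that stood apart, 3 genes were called higher and 8 lower (306 at an unadjusted p under 0.05), all of them among the 535. The split between directions depended on scaling: with each array scaled to its median, 579 genes were called higher and 215 lower (72.9% higher against 43.6%), and the median of all genes was 0.11 in place of 0.01.

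**Figure D1:**
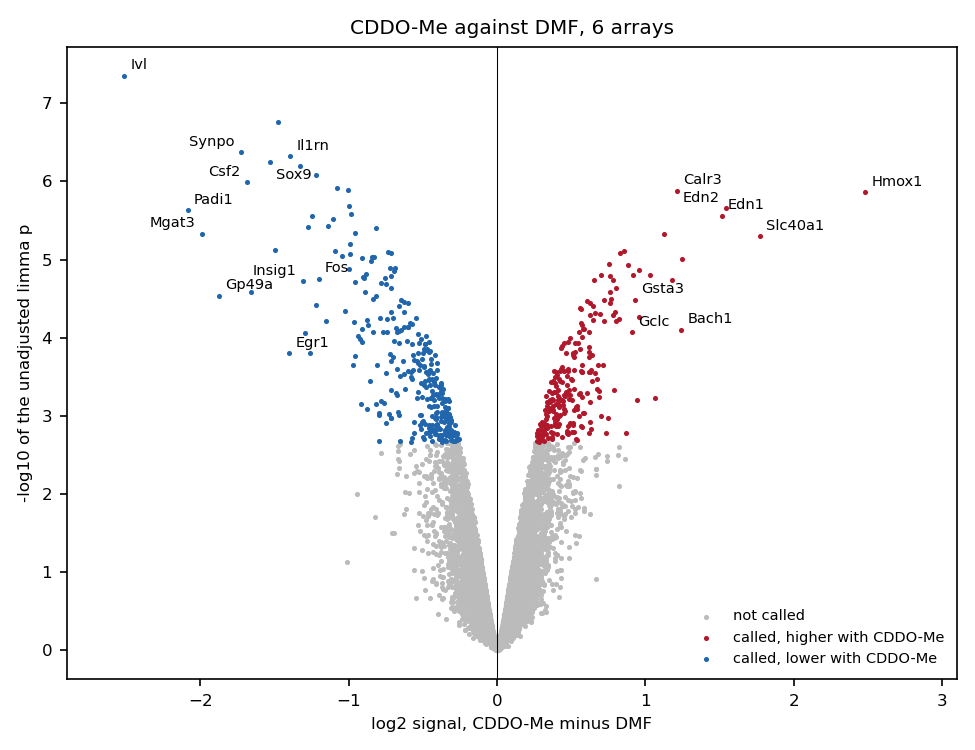
Log2 difference in signal between CDDO-Me and DMF (x axis) against −log10 of the unadjusted limma p (y axis), 1 point per gene, with 12340 genes in all. The 233 genes called higher with CDDO-Me are red and the 302 called lower are blue; Hmox1 at 2.48 and Ivl at -2.51 lie farthest out.

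**Figure D2:**
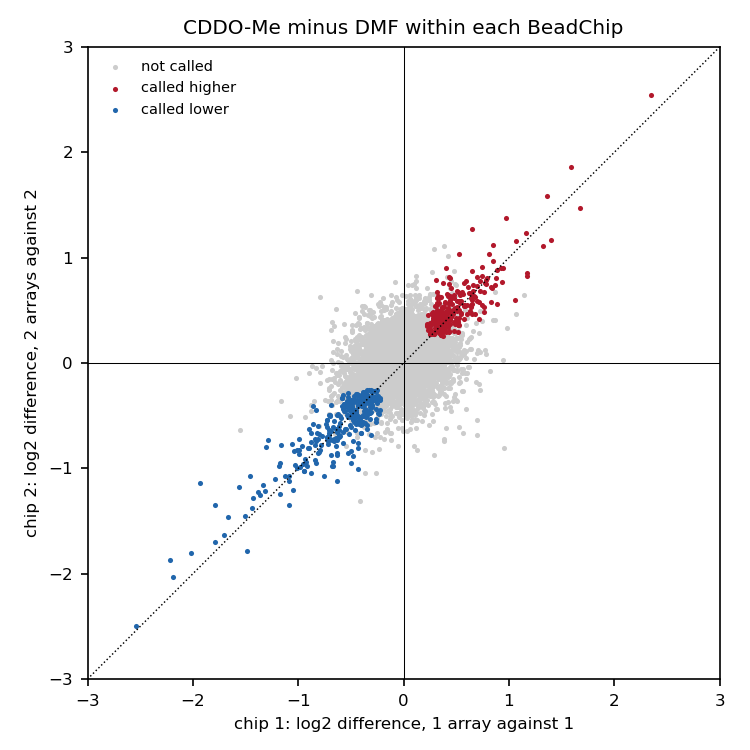
Log2 difference between CDDO-Me and DMF within chip 1 (x axis, 1 array against 1) and within chip 2 (y axis, 2 arrays against 2), 1 point per gene, with the line of equal values dotted. Called genes are coloured and lie in the lower left or upper right quadrant.

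The 6 arrays had mean signals of 598 to 684 and detected 38.3% to 40.8% of probes, and a signal was the mean of a median of 38 to 41 beads. Across genes, log2 signals of arrays of the same treatment correlated at r = 0.994 to 0.997 and those of different treatments at 0.992 to 0.995. The labelled epithelial origin was checked with 15 lung epithelium markers, of which 7 were detected on all 6 arrays, namely Nkx2-1, Sftpb, Abca3, Cdh1, Krt8, Krt18 and Krt19. Sftpc, Sftpa1, Sftpd, Lamp3, Scgb1a1 and Epcam were detected on none. Of 10 leukocyte markers on the array 2, Cd68 and Cd14, were detected on all 6 and 6 on none, Ptprc, Itgam and Adgre1 included; of 10 fibroblast markers 1 was detected on all and 7 on none, and of 8 endothelium markers none was detected on all. DMSO replicate 1 stood apart from the other arrays (median r of 0.905), so DMSO levels are shown for each array, as background to the comparison, and their median is used where 1 value is needed. Values below are log2 signals in the order of replicates 1, 2 and 3, and levels of different genes, measured by different probes, are not compared with each other.

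Genes of heme breakdown and iron handling held the 2 largest rises with CDDO-Me: 6 of 17 tested were higher (35.3%, against 1.89% of all genes) and none lower. Hmox1, which encodes heme oxygenase 1, the enzyme that opens the heme ring and releases iron, had signals of 10.16, 10.51 and 10.06 with CDDO-Me and 7.81, 7.70 and 7.77 with DMF. All 3 CDDO-Me arrays lay far above all 3 DMF arrays, and the DMF arrays in turn lay above the DMSO arrays at 7.50, 5.84 and 6.03. The difference of 2.48 ± 0.12 (SE; limma adjusted p = 0.00141) was a 5.59-fold higher signal. Slc40a1, which encodes ferroportin, the iron exporter of the cell membrane, followed with 9.23, 9.17 and 9.30 against 7.64, 7.21 and 7.54, a difference of 1.77 ± 0.11 (adjusted p = 0.00237), and its DMSO signals were 4.95, 6.59 and 6.43. The groups did not overlap. Bach1, which encodes the repressor of Hmox1, was higher by 1.24 ± 0.13 (adjusted p = 0.00815), with 9.43, 9.45 and 9.79 against 8.45, 8.31 and 8.17; 1 of its DMSO arrays, at 8.53, lay above the DMF arrays and the others, at 6.52 and 7.48, below. These 3 genes kept their calls with any 1 array left out. The other called members differed by less: Abcb6, a porphyrin transporter, by 0.45 ± 0.07 (adjusted p = 0.0286), Blvrb, biliverdin reductase B, by 0.41, and Slc48a1, a heme transporter, by 0.30. Abcb6 lost its call whichever array was left out (adjusted p of 0.0715 to 0.112), and 3 members were called under each omission. The median over the 17 was 0.09, against 0.01 over all genes.

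**Figure D3:**
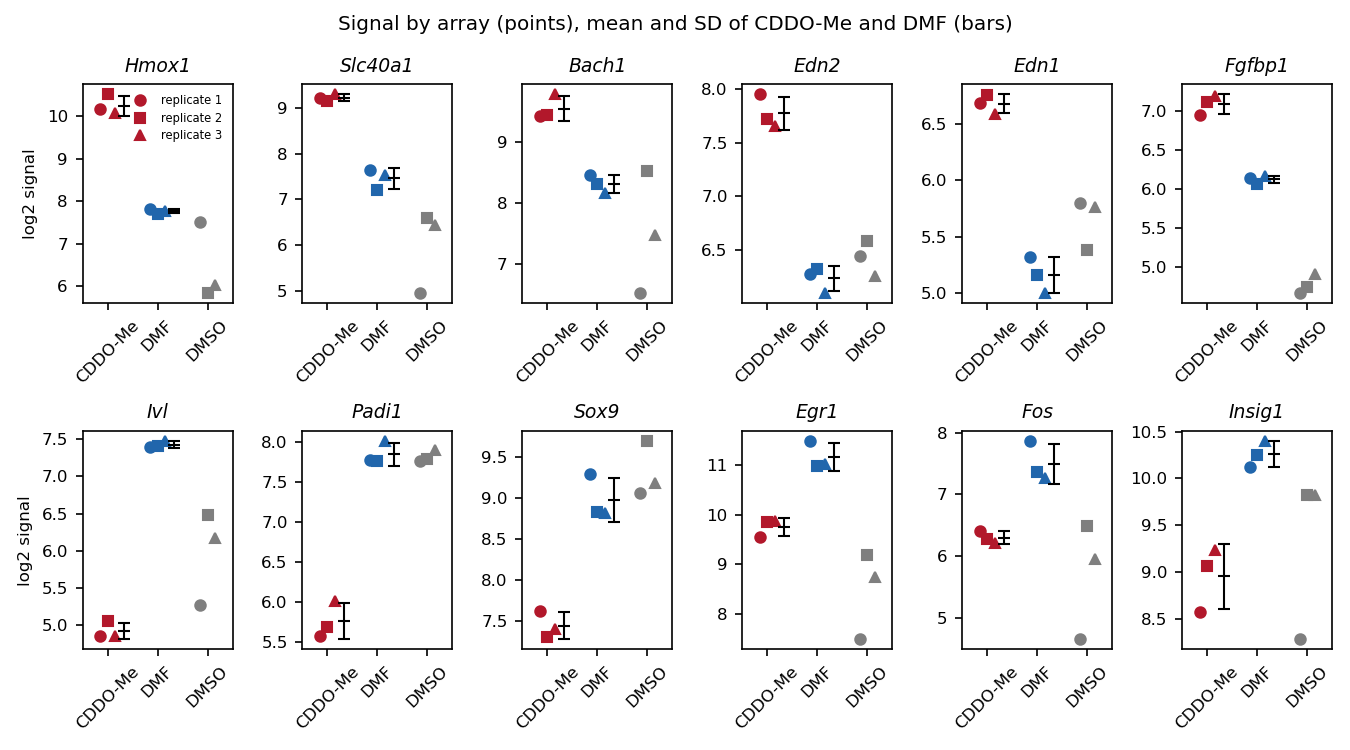
Log2 signal (y axis) of 12 genes on each CDDO-Me, DMF and DMSO array; circles, squares and triangles are replicates 1, 2 and 3, and the black bars give the mean and SD of the 3 CDDO-Me and 3 DMF arrays. For all 12 genes the CDDO-Me and DMF arrays do not overlap.

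The called glutathione genes were higher with CDDO-Me by a smaller step, and their levels lay above the DMSO median with both treatments. Of 28 tested, 7 were higher (25%, against 1.89% of all genes) and none lower, with a median difference of 0.17. For all 7 the DMSO median lay below both treatments. Gclc encodes the catalytic subunit of glutamate-cysteine ligase, the rate-limiting enzyme of glutathione synthesis, and had 9.66, 10.19 and 10.37 with CDDO-Me and 8.73, 9.52 and 9.23 with DMF. Within each replicate number the CDDO-Me array was higher, and the difference was 0.91 ± 0.09 (SE; limma adjusted p = 0.00826); DMSO arrays read 7.32, 6.70 and 7.18. Gclm, the modifier subunit of the same enzyme, had 13.80, 13.85 and 13.82 against 13.37, 13.51 and 13.54, a difference of only 0.35 ± 0.06 (adjusted p = 0.0283), where the DMSO arrays read 11.002, 11.59 and 11.57. Slc7a11, the cystine importer, differed by 0.33 ± 0.06 (adjusted p = 0.0341), with 13.34, 13.27 and 13.32 against 12.96, 13.03 and 12.94 and 9.23, 9.78 and 9.67 in DMSO. For Slc7a11, then, every treated array stood more than 3 log2 units above every DMSO array, while the treatments differed by 0.33. Its 4 probes disagreed in size: the brightest, used here, gave 0.33 and the others 0.47, 0.56 and 1.80. Gss, glutathione synthetase, was higher by 0.50 ± 0.07 (adjusted p = 0.018; its probes gave 0.45 to 1.14). The transferases Gsta3, Gstm1 and Gsta4, which attach glutathione to electrophiles, were higher by 0.93 ± 0.08, 0.57 ± 0.10 and 0.44, and their probes may also bind close paralogs. Gsta3 kept its call with any 1 array left out. Gclc lost its call without CDDO-Me replicate 1, CDDO-Me replicate 3 or DMF replicate 1 (adjusted p of 0.0176 to 0.068 over the omissions), and Gstm1, Gss, Gclm and Slc7a11 lost theirs under each, so 1 or 2 members were called. With the replicate block the adjusted p was 0.0542 for Gclm and 0.0605 for Slc7a11.

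Quinone, carbonyl and aldehyde genes gave the same share of calls. Of 20 tested, 5 were higher (25%, against 1.89% of all genes), none lower, with a median of 0.17. Aldh1a7 and Aldh1a1, aldehyde dehydrogenases that are close paralogs, were higher by 0.75 ± 0.13 (SE; limma adjusted p = 0.0335) and 0.58 ± 0.07 (adjusted p = 0.0146). Akr1c12, an aldo-keto reductase, had 9.83, 9.68 and 9.74 against 9.23, 9.14 and 9.18 and was higher by 0.57 ± 0.05 (adjusted p = 0.00618). The carbonyl reductases Cbr3 and Cbr1 were higher by 0.35 ± 0.06 (adjusted p = 0.0303) and 0.30, and Cbr3 stood far above DMSO in both treatments, at 12.10, 12.11 and 12.16 and 11.82, 11.79 and 11.72 against 7.78, 9.24 and 8.99. Nqo1, which encodes the quinone reductase most often used as a readout of NRF2, did not pass the test, at 7.28, 7.41 and 7.31 against 7.02, 6.96 and 7.10 and a difference of 0.31 ± 0.07 (adjusted p = 0.0672; 95% confidence interval 0.14 to 0.47). Its DMSO arrays, at 5.66, 5.44 and 5.34, lay below all 6 treated arrays. Between 0 and 3 members were called with 1 array left out, and with the replicate block 2 were, Aldh1a7 (adjusted p = 0.0587) and Cbr3 (0.0558) being among those lost.

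In the thioredoxin and peroxiredoxin list 2 of 18 were higher (11.1%, against 1.89% of all genes), none was lower, and the median was -0.01. Srxn1, sulfiredoxin, which repairs oxidised peroxiredoxins, was higher by 0.43 ± 0.06 (SE; limma adjusted p = 0.0245), with 14.08, 14.12 and 13.98 against 13.56, 13.69 and 13.65 and 11.79, 11.23 and 11.43 in DMSO. The other kept probes of Srxn1 gave 0.53 and 0.61. Glrx, glutaredoxin, was higher by 0.44 ± 0.06 (adjusted p = 0.0185), but its other kept probe gave 0.03. Txnrd1, thioredoxin reductase 1, had 8.93, 9.44 and 9.58 with CDDO-Me and 8.95, 9.42 and 9.63 with DMF, the groups overlapped throughout, and the interval of the difference ran from -0.21 to 0.17; its DMSO arrays read 5.39, 7.54 and 7.62. No member of the NADPH list of 12 was called; G6pdx, the first enzyme of the pentose phosphate path, differed by 0.28 ± 0.07 (adjusted p = 0.104). Among the 14 regulators of the KEAP1-NRF2 system only 2 were called, both higher (14.3%). They were Bach1 and Mafg, a small MAF partner of NRF2, Mafg by 0.42 ± 0.06 (adjusted p = 0.0245). Srxn1, Glrx and Mafg lost their calls whichever array was left out. Joined, the 6 lists held 108 tested genes, of which 21 were higher and none lower (19.4%, against 1.89% and 2.45% of all genes), with a median of 0.08; the higher count was 15 with the replicate block, 28 with median scaling and 4 to 7 with 1 array left out.

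The promoters of Gclm and Srxn1 are shown because both genes stood above DMSO with both treatments. On the probes used, both also differed between the treatments by under 1.5-fold. The windows, from RefSeq on GRCm38.p6, run from 250 bases before to 50 after the gene start, chr3:122245307-122245606 on the plus strand for Gclm and chr2:152105274-152105573 on the plus strand for Srxn1. Capitals mark a match to TGACNNNGC, the core of the antioxidant response element, for Gclm (on the opposite strand, its first base 134 bases before the start), and 2 matches to TGANTCA, the AP-1 motif, for Srxn1 (102 and 45 bases before the start). The Srxn1 window also holds 1 match to TGACNNNGC on the opposite strand, 28 bases after the start and left in lower case.
Gclm: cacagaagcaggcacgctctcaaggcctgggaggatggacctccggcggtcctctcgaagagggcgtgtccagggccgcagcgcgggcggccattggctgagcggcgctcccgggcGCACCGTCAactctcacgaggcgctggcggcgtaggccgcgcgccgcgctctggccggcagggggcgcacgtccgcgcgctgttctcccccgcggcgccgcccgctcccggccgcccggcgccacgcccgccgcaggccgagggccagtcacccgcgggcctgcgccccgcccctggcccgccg
Srxn1: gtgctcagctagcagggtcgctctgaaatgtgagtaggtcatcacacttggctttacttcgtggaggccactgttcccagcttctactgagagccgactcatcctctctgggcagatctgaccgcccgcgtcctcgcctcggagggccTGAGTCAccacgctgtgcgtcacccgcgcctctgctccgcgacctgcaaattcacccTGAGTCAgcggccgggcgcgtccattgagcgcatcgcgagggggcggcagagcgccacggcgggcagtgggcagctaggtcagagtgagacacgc
Both strands were searched, and a gene counted if any of its windows held a match. TGACNNNGC was found for 16.9% of the 8037 tested genes with a window, 20.8% of 154 called higher and 18.8% of 202 called lower. TGANTCA was found for 6.45%, 14.3% (22 of 154) and 12.9% (26 of 202). The motifs can overlap, as they did for 48 of 1474 windows of tested genes that held TGACNNNGC. A match is a run of letters and not a measured binding site.

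Outside the NRF2 lists, the largest rises with CDDO-Me were in secreted peptides. Edn2 and Edn1 encode endothelins, peptides that act on vessels and on tumour cells themselves. Edn2 had 7.95, 7.72 and 7.65 with CDDO-Me, 6.27, 6.32 and 6.10 with DMF and 6.44, 6.58 and 6.25 with DMSO, a difference of 1.54 ± 0.08 (SE; limma adjusted p = 0.00188). Edn1 had 6.68, 6.76 and 6.59 with CDDO-Me, 5.32, 5.16 and 5.0 with DMF and 5.80, 5.38 and 5.76 with DMSO, a difference of 1.51 ± 0.09 (adjusted p = 0.00188), and was detected on 3 CDDO-Me arrays and 1 DMF array. For both, the CDDO-Me arrays stood alone above the others. The DMF and DMSO arrays of Edn2 overlapped. For Edn1 every DMSO array lay above every DMF array, so part of its difference lies between DMF and DMSO. Fgfbp1, a carrier that frees fibroblast growth factors from the matrix, was graded, highest with CDDO-Me and lowest with DMSO, with 6.95, 7.11 and 7.20 with CDDO-Me, 6.14, 6.07 and 6.17 with DMF and 4.67, 4.75 and 4.91 with DMSO, and was higher by 0.96 ± 0.07 (adjusted p = 0.00363). Without background correction the differences of Edn1 and Fgfbp1, both of low signal, fell to 0.84 and 0.62, still called. These 3 genes kept their calls with any 1 array left out.

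Other large rises were in transcription and transport genes. Eomes, a T-box factor best known in lymphocytes and the early embryo, had 9.44, 9.48 and 9.56 against 8.11, 8.27 and 8.55 and 6.07, 7.01 and 6.95 in DMSO, a difference of 1.18 ± 0.09 (SE; limma adjusted p = 0.00379). Calr3, a calreticulin described mainly in testis, was higher by 1.21 ± 0.06 (adjusted p = 0.00141; its 3 probes gave 1.21, 1.16 and 0.53). Abcb4, a phospholipid translocator, was the 1 called member of 9 efflux transporters (11.1%, against 1.89% of all genes called higher). It was higher by 1.13 ± 0.07 (adjusted p = 0.00235). Its signals were 8.31, 8.37 and 8.23 with CDDO-Me, 7.25, 7.21 and 7.07 with DMF and 4.79, 5.38 and 5.10 with DMSO. In all 3 genes DMF lay between DMSO and CDDO-Me. Irs2, an insulin receptor substrate, had 9.44, 9.51 and 9.50 with CDDO-Me and 8.59, 8.46 and 8.31 with DMF, a difference of 1.03 ± 0.08 (adjusted p = 0.00378), and 1 DMSO array at 9.47 lay level with CDDO-Me while the others read 9.04 and 8.80. Ppargc1a, a coactivator of mitochondrial genes, was higher by 1.06 ± 0.16 (adjusted p = 0.0244) and Krt16, a stress keratin of stratified epithelia, by 0.94 ± 0.14 (adjusted p = 0.0247). The call of Ppargc1a ended with the replicate block (adjusted p = 0.0524) and without CDDO-Me replicate 2 or 3 or DMF replicate 2 or 3 (adjusted p of 0.0435 to 0.115 over the omissions), and that of Krt16 without any array but DMF replicate 2 (0.00909 to 0.119).

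The lowest fitted differences belonged to a pair of genes of stratified epithelium, Ivl and Padi1. Ivl encodes involucrin, a protein of the cornified envelope, and had 4.85, 5.04 and 4.85 with CDDO-Me, where it was detected on none of the 3 arrays, and 7.39, 7.41 and 7.48 with DMF, where it was detected on all. Against the detection floor of the arrays the signal with CDDO-Me was at least 4.46-fold lower (fitted difference -2.51 ± 0.07, SE; limma adjusted p = 0.000549). That floor averages, over the 3 arrays, whichever was greater on each: the signal of the dimmest detected probe or that of the Ivl probe itself. Its DMSO arrays read 5.27, 6.49 and 6.17, so the DMF arrays lay above DMSO and the CDDO-Me arrays below, and its other kept probe gave -1.68. The bound rests on the background correction: the difference of Ivl was -1.52 without it and -0.68 in the authors' normalized matrix. Padi1, a peptidylarginine deiminase that modifies keratins and filaggrin, had 5.58, 5.69 and 6.02 against 7.77, 7.76 and 8.02, a difference of -2.08 ± 0.11 (adjusted p = 0.00188). Its DMSO arrays, at 7.76, 7.79 and 7.90, lay level with DMF. Mgat3, which adds the bisecting sugar to N-glycans, was lower by 1.99 ± 0.12 (adjusted p = 0.00235), with 6.04, 6.64 and 6.26 against 8.26, 8.29 and 8.35 and 7.56, 8.55 and 8.31 in DMSO. All 3 genes kept their calls with any 1 array left out.

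The Ivl promoter is shown because Ivl had the largest fitted difference among the genes lower with CDDO-Me. Its RefSeq window on GRCm38.p6, chr3:92573686-92573985 on the minus strand, holds 1 match to TGANTCA, in capitals, 116 bases before the gene start.
Ivl: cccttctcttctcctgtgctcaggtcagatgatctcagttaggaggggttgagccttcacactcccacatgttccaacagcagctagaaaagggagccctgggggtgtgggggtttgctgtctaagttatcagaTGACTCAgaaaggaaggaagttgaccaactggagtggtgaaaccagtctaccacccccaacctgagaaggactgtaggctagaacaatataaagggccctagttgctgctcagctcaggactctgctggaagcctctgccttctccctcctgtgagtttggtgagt
Il1rn encodes the antagonist of the interleukin-1 receptor and is shown for comparison because its window too holds TGANTCA, 141 bases before the start (chr2:24336610-24336909, plus strand, 1 of its 3 windows).
Il1rn: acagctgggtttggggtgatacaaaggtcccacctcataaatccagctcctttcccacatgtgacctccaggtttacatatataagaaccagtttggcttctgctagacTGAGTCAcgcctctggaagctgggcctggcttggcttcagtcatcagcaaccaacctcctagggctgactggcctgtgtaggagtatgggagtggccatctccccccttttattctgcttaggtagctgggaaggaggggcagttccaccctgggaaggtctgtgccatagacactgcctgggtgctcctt
Il1rn had 10.82, 10.87 and 10.91 with CDDO-Me and 12.25, 12.32 and 12.20 with DMF, a difference of -1.39 ± 0.06 (SE; limma adjusted p = 0.0013), and 11.19, 12.47 and 12.26 in DMSO. The CDDO-Me arrays lay below every DMF array, and DMSO replicates 2 and 3, at 12.47 and 12.26, lay above or level with DMF.

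Further genes among the largest falls act on the cytoskeleton, on membranes and on vesicles. Synpo, an actin-associated protein, was lower by 1.73 ± 0.07 (SE; limma adjusted p = 0.0013), Rasl11b, a small GTPase, by 1.47 ± 0.05 (adjusted p = 0.00106), Cavin2, a coat protein of caveolae, by 1.33 ± 0.06 (adjusted p = 0.0013), and Sec16b, a protein of endoplasmic reticulum exit sites, by 1.49 ± 0.10 (adjusted p = 0.00307). Rasl11b had 8.24, 8.23 and 8.18 with CDDO-Me against 9.75, 9.64 and 9.68 with DMF and 9.97, 10.20 and 10.16 with DMSO. Its DMSO arrays lay above both treatments, as did the DMSO medians of Cavin2 and Sec16b, while that of Synpo lay between. Usp43, a deubiquitinase, was lower by 1.66 ± 0.14 (adjusted p = 0.00465). These 5 genes kept their calls with any 1 array left out. Probes filed as Gp49a and Lilr4b, names of closely related immunoglobulin-like receptors of leukocytes that may share transcripts, were lower by 1.87 ± 0.16 (adjusted p = 0.00509) and 1.29 ± 0.13 (adjusted p = 0.00828) and were detected on 2 and 1 of the 3 CDDO-Me arrays and on all DMF arrays. Without background correction Gp49a differed by -1.13 and Lilr4b by -0.70. In the authors' normalized matrix they differed by -0.53 and -0.29. Both lost their calls without CDDO-Me replicate 1 or DMF replicate 1, and Lilr4b also without CDDO-Me replicate 3. Over the omissions the adjusted p was 0.00558 to 0.0506 for Gp49a and 0.00612 to 0.0682 for Lilr4b. Cd14, the lipopolysaccharide co-receptor and 1 of the 2 leukocyte markers detected, was lower as well, by 0.72 ± 0.06 (adjusted p = 0.00434), with 9.32, 9.50 and 9.47 against 10.14, 10.13 and 10.17. The summed signal of the 10 leukocyte markers was 961 to 1070 with CDDO-Me and 1436 to 1442 with DMF. Most of that sum was Cd14, with mean log2 signals of 9.43 and 10.15, so the sum largely restates that gene. The part of the sum in these results was not tested. Ptprc, the marker that defines leukocytes, was detected on no array.

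Among 14 transcription factors of lung epithelium and lung adenocarcinoma, 4 were higher (28.6%, against 1.89% of all genes) and 3 lower (21.4%, against 2.45%) with CDDO-Me. Sox9, a factor of distal lung progenitors, fell most, with 7.63, 7.31 and 7.40 against 9.29, 8.83 and 8.82, a difference of -1.53 ± 0.07 (SE; limma adjusted p = 0.0013). The DMSO arrays, at 9.07, 9.69 and 9.18, lay with or above the DMF arrays, and the CDDO-Me arrays stood alone below. Id2, an inhibitor of helix-loop-helix factors that marks the lung bud tip, was lower by 0.60 ± 0.05 (adjusted p = 0.00548), and Elf3, an epithelial ETS factor, by 0.35. The other kept probes of Sox9 and Id2 gave -0.86 and -0.30, and the call of Id2 ended with the mean of its probes. Foxa2, a pioneer factor of lung epithelium, rose by 0.77 ± 0.07 (adjusted p = 0.00541), with 8.71, 8.50 and 8.61 against 7.94, 7.71 and 7.87 and 7.11, 7.32 and 7.21 in DMSO. Hnf4a and Klf5 were higher by 0.45 and 0.40. Sox4 was higher by 0.63 ± 0.11 on its brightest probe (adjusted p = 0.0404), but its other probe gave -0.39 and the call ended with the replicate block (0.0546), so its direction is not settled. Sox9 kept its call with any 1 array left out, while Foxa2 and Id2 lost theirs without CDDO-Me replicate 1 or DMF replicate 1 (adjusted p of 0.0121 to 0.0531 and 0.0192 to 0.0545), so 0 to 2 members were called higher and 1 or 2 lower. None of the 8 lung epithelium markers tested was called, and Krt19, that of smallest p, differed by -0.18 ± 0.07 (adjusted p = 0.249).

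Immediate early genes, which answer growth factor and stress signals within minutes to hours, gave more genes lower than higher with CDDO-Me: 9 of 24 were lower (37.5%, against 2.45% of all genes) and 3 higher (12.5%, against 1.89%), with a median of -0.30. Egr1, a zinc finger factor, had 9.55, 9.85 and 9.87 with CDDO-Me, 11.48, 10.98 and 11.02 with DMF and 7.49, 9.20 and 8.75 with DMSO, a difference of -1.40 ± 0.16 (SE; limma adjusted p = 0.0118). Fos, a subunit of AP-1, had 6.41, 6.28 and 6.21 with CDDO-Me, 7.87, 7.37 and 7.26 with DMF and 4.65, 6.49 and 5.94 with DMSO, a difference of -1.20 ± 0.09 (adjusted p = 0.00379). For both genes the DMF arrays were the highest, and the DMSO median lay below both treatments. Klf2 and Ccn2 differed in another way: Klf2, a zinc finger factor, had 7.78, 7.82 and 7.57 with CDDO-Me, 8.70, 8.77 and 8.50 with DMF and 8.73, 8.59 and 8.86 with DMSO (difference -0.94 ± 0.10, adjusted p = 0.00895), and Ccn2, a matrix-associated YAP target, had 11.30, 11.37 and 11.36 with CDDO-Me, 12.26, 12.16 and 12.14 with DMF and 12.88, 12.86 and 12.98 with DMSO (difference -0.85 ± 0.06, adjusted p = 0.00319). In these the CDDO-Me arrays lay below both DMF and DMSO. Errfi1, Fosb, Egr3, Junb and Ier3 were lower by 0.59 to 0.37. Gadd45b, a stress sensor that binds MAP kinase kinases, was higher with CDDO-Me by 0.96 ± 0.09 (adjusted p = 0.00702). It had 7.31, 7.16 and 7.23 against 6.14, 6.25 and 6.44 with DMF and 8.20, 6.69 and 6.83 with DMSO. Its DMSO median lay between the treatments, nearer CDDO-Me. The AP-1 subunits Fosl2 and Jun were higher by 0.51 and 0.44. The DMSO median lay below both treatments for 1 of them and above both for the other. With median scaling 6 genes of the list were lower and 3 higher, and with 1 array left out 2 to 7 were lower and 1 or 2 higher. Egr1 lost its call without CDDO-Me replicate 2 or 3 (adjusted p of 0.0239 to 0.0632 over the omissions), Klf2 without CDDO-Me replicate 1, CDDO-Me replicate 3 or DMF replicate 1 (0.0135 to 0.0682), and Gadd45b without CDDO-Me replicate 3 (0.00921 to 0.0527), while Fos and Ccn2 kept theirs.

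Feedback genes of the MAP kinase and EGF receptor pathways followed with fewer calls, 16.7% and 14.3% lower against 2.45% of all genes. Of 18 MAP kinase feedback genes 3 were lower and none higher: Errfi1, an inhibitor of the EGF receptor, had 12.94, 12.89 and 12.85 against 13.61, 13.46 and 13.38 (difference -0.59 ± 0.06, SE; limma adjusted p = 0.00745), Dusp10, a phosphatase of p38 and JNK, -0.46 ± 0.06 (adjusted p = 0.0184), and Ier3 -0.37 ± 0.06 (adjusted p = 0.0259). Of 14 ligands and receptors of the EGF family 2 were lower, Errfi1 and Lrig1, which promotes receptor degradation (-0.34 ± 0.05, adjusted p = 0.0245), and none higher. With median scaling 1 gene of each list was called lower and 1 higher. All 4 calls were lost under at least 3 of the 6 omissions, and 0 or 1 member of each list was then called.

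NF-kB targets were called only downwards, 5 of 22 lower (22.7%, against 2.45% of all genes) and none higher, though the list median was -0.01. Csf2, the growth factor GM-CSF, had 5.08, 4.85 and 4.80 with CDDO-Me, detected on none of the arrays, and 6.57, 6.57 and 6.66 with DMF, detected on all, so its signal was at least 2.51-fold lower (limma adjusted p = 0.00141); DMSO arrays read 5.07, 6.36 and 5.99. The difference of Csf2 was -0.94 without background correction and -0.37 in the authors' normalized matrix, both smaller than that bound. Bcl3, an IkB-family coactivator, had 6.47, 6.50 and 6.51 against 7.55, 7.71 and 7.54, a difference of -1.11 ± 0.06 (SE; adjusted p = 0.00198), with 9.68, 7.40 and 7.69 in DMSO. The feedback inhibitor Tnfaip3, also called A20, was lower by 0.85 ± 0.12 (adjusted p = 0.0185), Tnfaip2 by 0.54 ± 0.07 (adjusted p = 0.0137) and Nfkbiz, a nuclear IkB, by 0.42. For Bcl3, Tnfaip3 and Tnfaip2 the DMSO median lay above both treatments; with the mean of DMSO replicates 2 and 3 this held for Tnfaip3, while DMSO lay between the treatments and nearer DMF for Bcl3 and Tnfaip2. Csf2 and Bcl3 kept their calls with any 1 array left out and Tnfaip3 only without DMF replicate 3 (adjusted p of 0.0447 to 0.071), and 2 to 4 members were called lower; with median scaling 4 were lower and 2 higher.

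Cytokines and their receptors gave 4 of 24 lower (16.7%, against 2.45% of all genes), none higher, and a median of -0.19. Besides Csf2 and Il1rn these were Lif, the leukaemia inhibitory factor, with 7.42, 7.47 and 7.38 against 8.30, 8.17 and 8.02 (difference -0.74 ± 0.08, SE; limma adjusted p = 0.00826), and Il34, a ligand of the CSF1 receptor. Il34 was detected on no CDDO-Me array and on all DMF arrays, at 5.53, 5.62 and 5.46, so its signal was at least 1.2-fold lower (adjusted p = 0.0364; 0.0675 with the replicate block, and 0.0619 to 0.15 with 1 array left out); without background correction its difference was -0.27, and -0.09 in the authors' matrix. Lif lost its call without CDDO-Me replicate 1, CDDO-Me replicate 3 or DMF replicate 1 (adjusted p of 0.0129 to 0.0582), and 2 to 4 members were called under the omissions. Of 14 interferon genes 1 was called (7.14%). It was Oasl1, a member of the oligoadenylate synthetase family, lower by 1.22 ± 0.06 (adjusted p = 0.00141). Oasl1 had 8.48, 8.58 and 8.47 against 9.65, 9.77 and 9.77. Its DMSO arrays read 9.37, 8.82 and 8.98, with replicates 2 and 3 nearer CDDO-Me and replicate 1 nearer DMF. Of 15 genes of STAT3 signalling 2 were lower (13.3%), Junb and Pim3, a kinase. Junb was lower by 0.44 ± 0.07 (adjusted p = 0.0324). Pim3 was lower by 0.35 ± 0.06 (adjusted p = 0.041, and 0.0707 with the replicate block). Pim3 lost its call under every omission and Junb under all but that of DMF replicate 3.

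Cholesterol synthesis genes lay mostly below 0: 9 of 22 were lower (40.9%, against 2.45% of all genes), none was higher, 20 of the 22 differences were negative and the median was -0.33. Insig1, which holds SCAP, the escort of the SREBP factors, in the endoplasmic reticulum when sterols are plentiful and is itself an SREBP target, had 8.57, 9.06 and 9.23 against 10.13, 10.25 and 10.40, a difference of -1.31 ± 0.10 (SE; limma adjusted p = 0.00379). All CDDO-Me arrays lay below all DMF arrays, and DMSO replicates 2 and 3, both at 9.82, lay between, while DMSO replicate 1, at 8.28, lay below all of them. Idi1, isopentenyl diphosphate isomerase, had 6.15, 6.46 and 6.73 against 6.82, 7.21 and 7.46, a difference of -0.72 ± 0.10 (adjusted p = 0.0218), and 5.25, 6.73 and 6.69 in DMSO. Msmo1 and Cyp51, which act in sterol demethylation, were lower by 0.71 ± 0.12 (adjusted p = 0.0335) and 0.66 ± 0.09 (adjusted p = 0.017). Mvd, Fdps, Lss and Hsd17b7 were also among the 9, lower by 0.58 to 0.35. Of the 9, the DMSO median lay nearer CDDO-Me for 4, nearer DMF for 3 and below both for 2. The sterol element TCACNCCAC was found in the promoter windows of none of the 7 called members with a window, and for 1.24% of all tested genes with one. At that share a match among 7 genes is unlikely, so the absence does not set these members apart. Insig1 kept its call with any 1 array left out, Cyp51 lost it under each omission (adjusted p of 0.0515 to 0.0739), and 1 to 4 members were then called; median scaling left 5 lower and none higher, and the median kept its sign under all alternatives, from -0.36 to -0.22.

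Of 14 fatty acid synthesis genes 3 were lower (21.4%, against 2.45% of all genes) and 1 was higher (7.14%, against 1.89%). The median was -0.16. Scd1, the stearoyl-CoA desaturase, was lower by 0.66 ± 0.11 (SE; limma adjusted p = 0.0319; 0.0568 with the replicate block), Acsl3, an acyl-CoA synthetase, by 0.48 ± 0.05 (adjusted p = 0.00895), and Srebf1, which encodes the SREBP-1 factor, by 0.43 ± 0.06 (adjusted p = 0.0245). Acss2, which activates acetate, was higher by 0.38 ± 0.06 (adjusted p = 0.0303; 0.0552 with the replicate block) and stood above DMSO in both treatments, at 9.33, 9.27 and 9.25 and 9.05, 8.78 and 8.87 against 5.27, 7.73 and 7.39. At most 1 member was called under any omission.

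All 27 hypoxia and glycolysis genes lay below 0, with a median of -0.17, and 6 were called lower (22.2%, against 2.45% of all genes). Pfkfb4, which sets the level of the glycolytic activator fructose 2,6-bisphosphate, had 9.87, 9.86 and 9.97 against 10.86, 10.89 and 10.92 and 10.36, 10.48 and 10.43 in DMSO, a difference of -0.98 ± 0.06 (SE; limma adjusted p = 0.00188). The DMSO arrays lay between the treatments. Ddit4, an inhibitor of mTORC1, was lower by 0.67 ± 0.07 (adjusted p = 0.00826), Ankrd37 by 0.66 ± 0.11 (adjusted p = 0.0308) and P4ha2, a collagen prolyl hydroxylase, by 0.50 ± 0.06 (adjusted p = 0.0118). Egln1, the oxygen sensor that marks HIF for destruction, and Pdk1, which holds pyruvate back from mitochondria, were lower by 0.44 and 0.34. Pfkfb4 kept its call with any 1 array left out, and 1 to 3 members were called under the omissions. The median stayed below 0 under all alternatives, from -0.18 to -0.07, and median scaling left 4 members lower.

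Water channels and a pore-forming claudin were lower with CDDO-Me. Of 19 junction and aquaporin genes 5 were lower (26.3%, against 2.45% of all genes), none was higher and the median was -0.11. Cldn2 had 11.07, 11.10 and 10.96 with CDDO-Me, 12.26, 12.03 and 11.97 with DMF and 13.06, 12.55 and 12.82 with DMSO, a difference of -1.05 ± 0.07 (SE; limma adjusted p = 0.0031). Aqp5, the water channel of alveolar type I and airway gland cells, had 12.45, 12.52 and 12.45 with CDDO-Me, 13.44, 13.41 and 13.29 with DMF and 13.91, 13.52 and 13.79 with DMSO, a difference of -0.91 ± 0.06 (adjusted p = 0.0031). In both genes the order from low to high was CDDO-Me, DMF, DMSO, with no overlap. Aqp8 and Aqp11 were lower by 0.74 ± 0.07 (adjusted p = 0.00707) and 0.68 ± 0.07 (adjusted p = 0.00797) and lay in the same order, and Aqp1 was lower by 0.45. Cldn2 and Aqp5 kept their calls with any 1 array left out, and 3 or 4 members were called under the omissions; the list median was at 0.00018 with median scaling and below 0 otherwise.

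**Figure D4:**
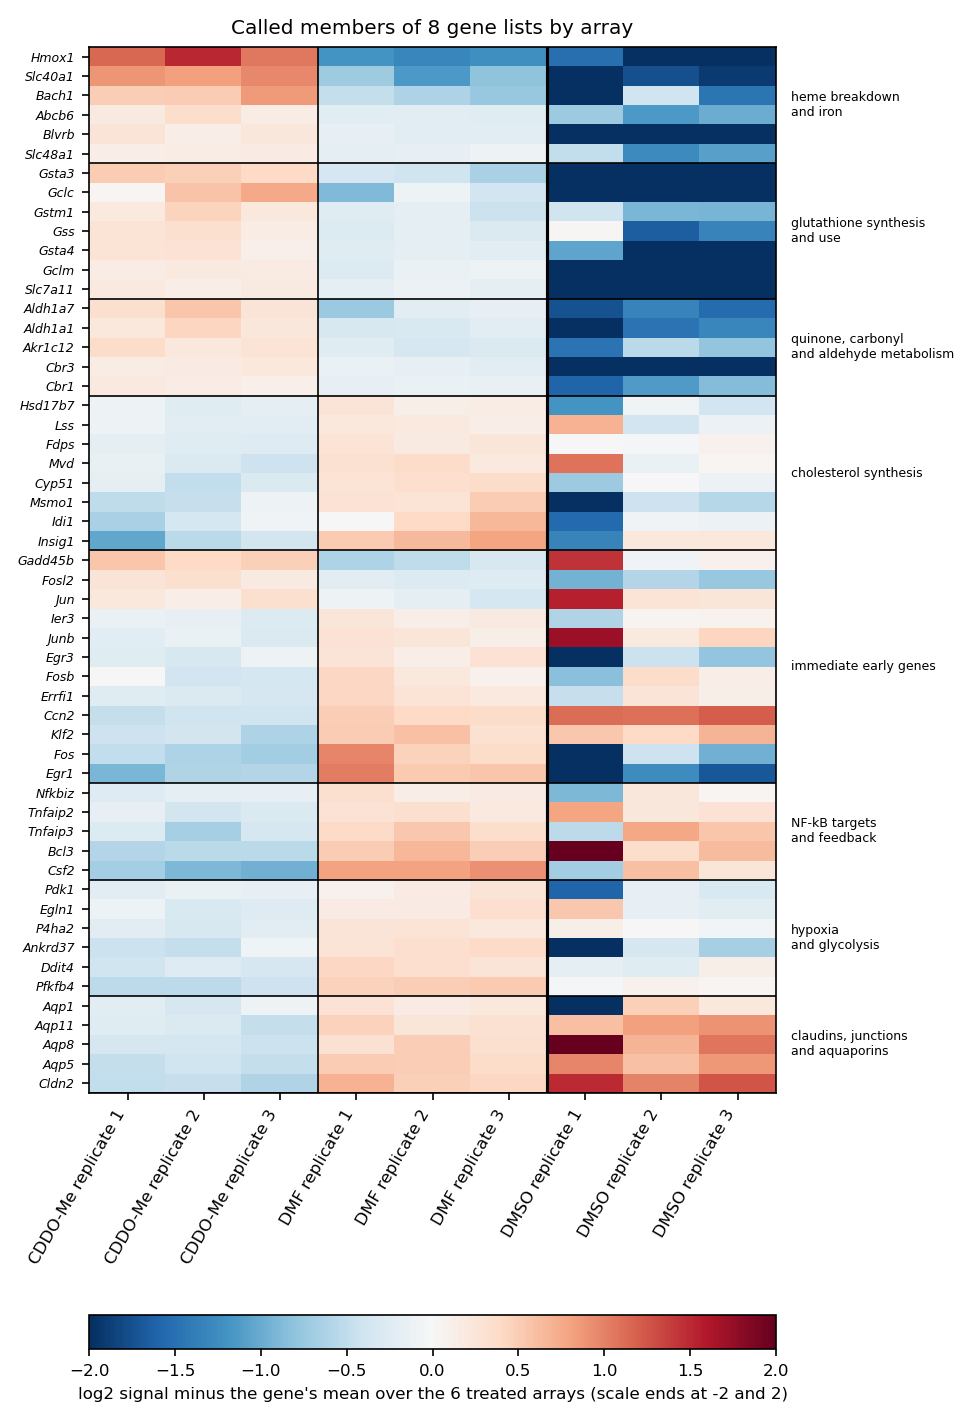
Log2 signal of called members of 8 gene lists (rows) on each CDDO-Me, DMF and DMSO array (columns), as the difference from the gene's mean over the 6 treated arrays; red is higher, blue lower, and the scale ends at -2 and 2. Most glutathione and quinone genes differ less between the treatments than from DMSO, where they are dark blue; immediate early genes do not share 1 DMSO pattern.

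Stress lists other than those of NRF2 gave few calls in number. Over all genes 1.89% were called higher and 2.45% lower. The shares were 5.26% higher and 7.89% lower for ATF4, 8.7% lower for the endoplasmic reticulum and 4.55% higher for heat shock. They were 6.67% each way for peroxide defence and 20% higher for zinc, each resting on few genes. Of 38 genes of the ATF4 amino acid response 2 were higher and 3 lower: Slc1a4, a neutral amino acid transporter, was higher by 0.82 ± 0.08 (SE; limma adjusted p = 0.00707) and far above DMSO in both treatments, at 12.22, 12.12 and 11.99 and 11.29, 11.38 and 11.19 against 8.94, 9.48 and 9.25. Slc6a9, a glycine transporter, was higher by 0.32, while Nupr1, a stress cofactor, fell by 0.84 ± 0.07 (adjusted p = 0.00541), as did Ddit4 and Wars, the tryptophan tRNA synthetase (-0.32 ± 0.06, adjusted p = 0.042; 0.0691 with the replicate block). Of 23 genes of the endoplasmic reticulum 2 were lower: Ern1, the sensor IRE1, had 8.44, 8.52 and 8.56 against 9.08, 9.24 and 9.25 (difference -0.69 ± 0.05, adjusted p = 0.00357; its other probes gave -0.33 and -0.16), and Hspa5, the chaperone BiP, was lower by 0.51 ± 0.09 (adjusted p = 0.0403), with groups that overlapped. Of 22 cytosolic heat shock genes 1 was higher, Hspb8, by 0.49 ± 0.05 (adjusted p = 0.00918). Of 15 genes of peroxide defence and ferroptosis Slc7a11 was higher and 1 was lower: Aifm2, also called FSP1, a reductase that protects membranes from lipid peroxides, fell by 0.87 ± 0.09 (adjusted p = 0.00774), with 9.23, 9.49 and 9.40 against 10.29, 10.31 and 10.13 and 9.82, 10.20 and 10.22 in DMSO. Its DMF arrays lay with the DMSO arrays and its CDDO-Me arrays below both. Of 5 zinc and metallothionein genes the zinc exporter Slc30a1 was higher, by 0.56 ± 0.08 (adjusted p = 0.0229). Ern1 kept its call with any 1 array left out; Slc1a4, Nupr1, Aifm2, Hspb8, Slc30a1, Wars and Hspa5 each lost theirs under at least 2 omissions.

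TGF-beta, BMP and YAP genes gave 1 higher (3.7%, against 1.89% of all genes) and 3 lower (11.1%, against 2.45%) of 27. The receptor gene Tgfbr2 was higher by 0.37 ± 0.07 (SE; limma adjusted p = 0.0474), and Smad3, a transducer of TGF-beta signals, was lower by 0.38 ± 0.05 (adjusted p = 0.02), as were Ccn2 and Id2. Of 28 p53 and apoptosis genes 1 was higher (3.57%) and 2 were lower (7.14%). Plk2, a polo-like kinase, was higher by 0.65 ± 0.06 (adjusted p = 0.00719). Bcl2l11 and Bbc3, which encode the pro-apoptotic proteins BIM and PUMA, were lower by 0.46 ± 0.08 (adjusted p = 0.0403) and 0.37 ± 0.07 (adjusted p = 0.0481). The calls of Bcl2l11 and Bbc3 ended with the replicate block (0.0728 and 0.0819), and their other kept probes gave -0.16 and -0.04. With median scaling 5 of the TGF-beta list were higher and 2 lower. Tgfbr2, Smad3, Bcl2l11 and Bbc3 lost their calls whichever array was left out, and Plk2 without CDDO-Me replicate 1 or DMF replicate 1 (adjusted p of 0.0258 to 0.0617). Among 11 matrix proteases and inhibitors only Timp1 was called (9.09%), higher by 0.31 ± 0.06 (adjusted p = 0.0422, and 0.0657 with the replicate block). Pdgfra, a receptor that marks fibroblasts, was higher by 0.64 ± 0.08 (adjusted p = 0.012) and was detected on 3 CDDO-Me arrays and 1 DMF array; its call ended without CDDO-Me replicate 1 or 3 or DMF replicate 1 (0.0335 to 0.0823), and without background correction its difference was 0.33. The summed signal of the 10 fibroblast markers was 2021 to 2154 with CDDO-Me and 1745 to 1889 with DMF. Most of that sum was Acta2, with mean log2 signals of 10.8 and 10.6, so the sum largely restates that gene. The part of the sum in the other results was not tested.

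Several lists had no called member (limma, adjusted p). They included 28 S phase and 22 G2/M genes, 31 proteasome subunits, 39 respiratory chain subunits and 22 genes of the tricarboxylic acid cycle. Also without a call were 30 genes of lysosome and autophagy, 28 ribosomal protein genes and 6 of the aryl hydrocarbon receptor. The medians of these lists lay between -0.05 and 0.10. Over all genes 1.89% were called higher and 2.45% lower. At those shares few calls would fall in a list of such size, so their absence does not by itself set these lists apart. The smallest p among the proteasome genes was that of Psmd11, which differed by 0.30 ± 0.07 (SE; adjusted p = 0.0726) with groups that overlapped, and among the S phase genes that of Rrm2, a subunit of ribonucleotide reductase, at 0.18 ± 0.05 (adjusted p = 0.144). Of the lysosome genes Ctsl, cathepsin L, came nearest to a call, at -0.33 ± 0.06 (adjusted p = 0.0507). Mdh1, Rps19, Uqcrb and Tpx2, those of smallest p in the tricarboxylic acid cycle, ribosomal, respiratory chain and G2/M lists, had adjusted p-values of 0.309, 0.272, 0.152 and 0.288. Unadjusted, 2395 of the 12340 genes had a p under 0.05.

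**Figure D5:**
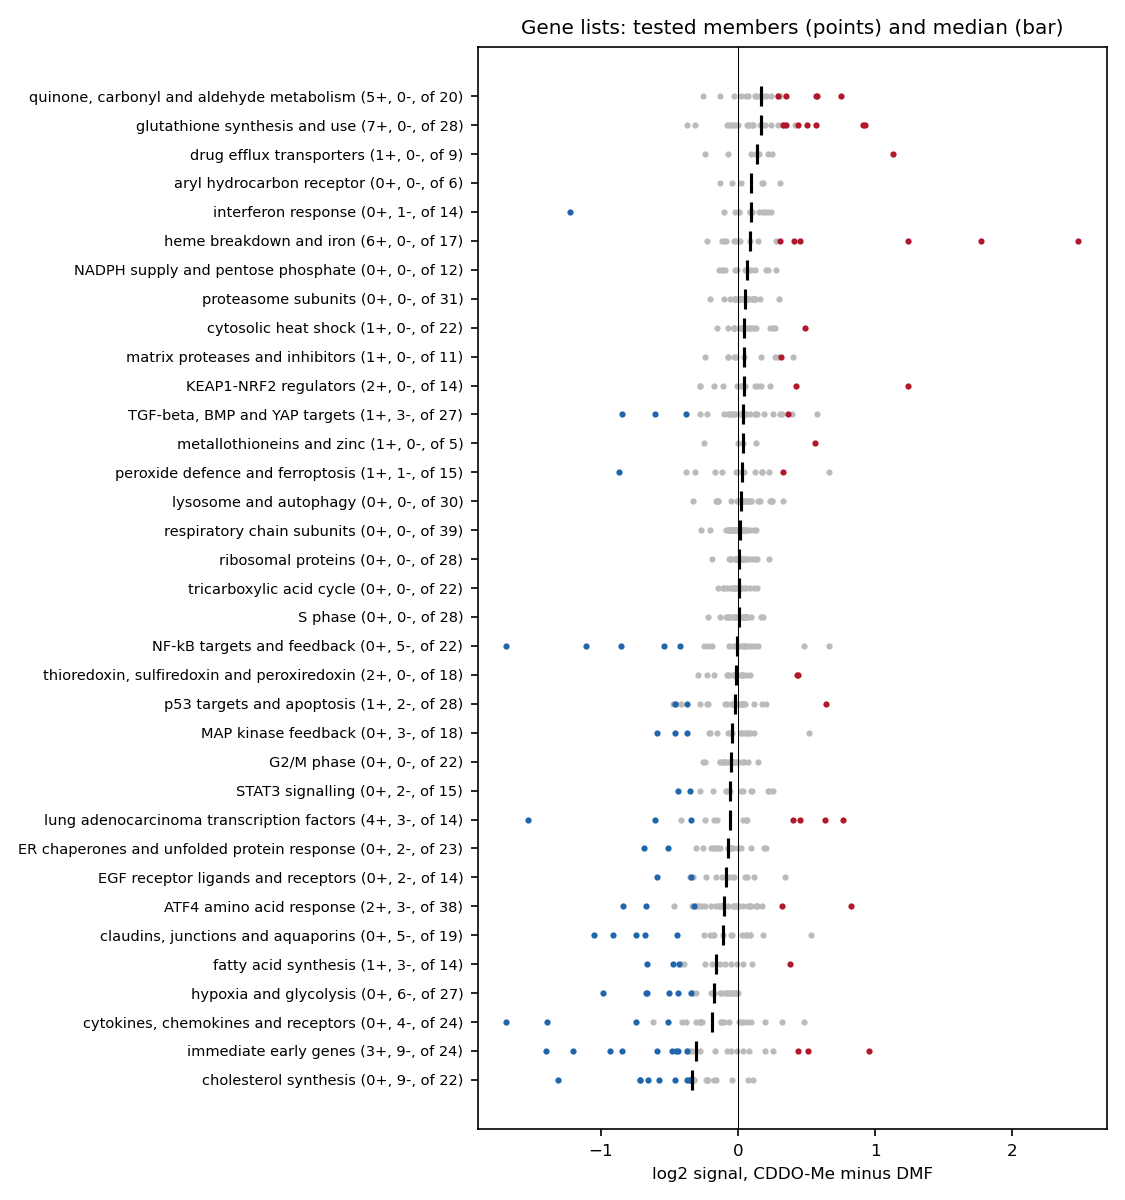
Log2 difference between CDDO-Me and DMF (x axis) of every tested member of each gene list (rows), with red points called higher, blue points called lower and grey points not called; the black bar is the list median, and the label gives the calls in each direction and the members tested. Cholesterol synthesis has the lowest median, -0.33.

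Where DMSO lay differed between the directions. Of the 233 genes higher with CDDO-Me, 144 (61.8%) had a DMSO median below both treatments, against 39% of all genes tested, and 37 (15.9%) had it between them and nearer DMF. Of the 302 lower genes 124 (41.1%) had DMSO above both treatments, against 43.5% of all genes, and 92 (30.5%) had it between and nearer DMF, against 8.64%. DMSO lay below both for 32 of the lower genes (10.6%, against 39% of all genes), Egr1 and Fos among them. With the mean of DMSO replicates 2 and 3 in place of the median, 61.4% of the higher genes had DMSO below both treatments, against 35.5% of all genes, and 44% of the lower genes had it above both, against 42.8%. These are positions of levels, with no test of either treatment against DMSO. The called genes were chosen for a wide gap between the treatments, with a median size of 0.49 against 0.09 over all genes. A DMSO value falls between such means more readily and outside them less, so part of the contrast with all genes follows from that choice.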

How the data were processed

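The deposited intensities are mean bead signals per probe, written without normalization by version 1.9.0 of GenomeStudio's expression module, per the file headers. The deposited detection p-values and the deposited count of beads behind each signal come from the same reports; further steps before export are not given in the sources used here. A second deposited matrix holds intensities that the authors normalized between arrays, with no method stated, and served as an alternative only.

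Signals were corrected with limma's normexp from the detection p-values (offset 16), quantile normalized together with the 6 remaining arrays and taken to log2. Of 45281 probes, 17869 with a detection p under 0.05 on at least 3 of the 6 arrays were kept; the brightest stood for each of 12340 genes, 3820 of which had several. Current symbols came through Entrez numbers (29586 probes) or accessions (2759). Treatment was tested with limma 3.58.1 in R 4.3.3 on the 6 arrays with chip as a term (3 residual and 2.84 prior degrees of freedom), a method tested on simulated data. Replicates with the same number had positive correlations of their deviations (0.390, 0.164 and 0.208). The value of 0.390 is between arrays that were each alone of their treatment on a chip. It cannot be told from an effect of chip. On the other chip, arrays of different number gave 0.106 and -0.0146. Pairing by number was therefore not established, and it entered only the alternative fit with a replicate block. The number of arrays limits the precision; the median SE was 0.07.

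Named were the 15 largest calls each way with the same sign on both chips, up to 4 called members per list or its member of smallest p, and 8 NRF2 targets; further called list members are given as sizes. Some genes are not reported here. The members and lists were chosen with earlier results of these data known. Promoter sequences are RefSeq's. Alternatives covered background, scaling, filter, probes, chip, replicate block, arrays in the fit and each array left out.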

Additional observations from a re-analysis of the deposited data

How the results depend on the processing

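All 535 calls kept their direction under every alternative in which they were tested (449 of them with detection p under 0.01 on all 6 arrays). The counts, 233 higher and 302 lower in the report, moved with the settings. They were 381 and 476 without background correction, 353 and 437 with an offset of 50, 579 and 215 with median scaling, 459 and 585 in the authors' normalized matrix, 89 and 141 without a filter on detection, 346 and 463 with the stricter filter, and 512 and 627 with limma-trend and robust eBayes. They were 35 and 65 within chip 2, 3 and 8 with 12 arrays in the fit, and 279 and 326 with the 10 arrays that did not stand apart. Leaving out 1 array gave 35 to 107 higher and 65 to 156 lower; leaving out either chip 1 array equals the fit within chip 2. With the replicate block, which pairs arrays of the same number, 185 were higher and 236 lower, and the calls of 14 of the 92 called named genes ended: Ppargc1a, Aldh1a7, Sox4, Acss2, Gclm, Cbr3, Slc7a11, Timp1, Wars, Pim3, Bbc3, Bcl2l11, Il34 and Scd1. It ended no other named call. Median scaling ended 11 of the 92. Of the 92, 33 were called under all 6 omissions of 1 array. In the authors' matrix 40 of the 92 differed by over 1.5 times less and 0 by over 1.5 times more, for example -0.68 in place of -2.51 for Ivl, -0.73 in place of -2.08 for Padi1, 0.35 in place of 1.51 for Edn1 and 1.08 in place of 1.77 for Slc40a1. The cause was not tested. The medians of 16 of 35 lists changed sign under an alternative, while those of the glutathione, quinone, heme, cholesterol, fatty acid, hypoxia, cytokine and immediate early lists kept theirs under all alternatives.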

Other observations

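Several other called genes, chosen after their values were seen, belong to groups the lists did not hold (limma, adjusted p, log2 difference ± SE, CDDO-Me against DMF). Genes known from the epidermis and squamous epithelium lay on both sides. Lower, besides Ivl and Padi1, were the homeobox gene Dlx3 at -1.09 ± 0.07 (adjusted p = 0.00307), the keratin genes Krt36 at -0.91 ± 0.10 (adjusted p = 0.00995), Krt13 at -0.44 ± 0.06 (adjusted p = 0.022) and Krt79 at -0.34 ± 0.05 (adjusted p = 0.0245), and the kallikreins Klk10 at -0.70 ± 0.08 (adjusted p = 0.0125), Klk6 at -0.46 ± 0.07 (adjusted p = 0.0276) and Klk8 at -0.37 ± 0.06 (adjusted p = 0.0306). Higher were the keratin gene Krt16 at 0.94 ± 0.14 (adjusted p = 0.0247), Kprp, which encodes a proline-rich protein of keratinocytes, at 0.72 ± 0.06 (adjusted p = 0.00542), and Scel, which encodes sciellin of the cornified envelope, at 0.55 ± 0.08 (adjusted p = 0.023). The protease inhibitor genes Serpinb9f, Serpinb9g and Serpinb9e, close paralogs whose probes may cross-react, were lower at -0.90 ± 0.07 (adjusted p = 0.00379), -0.84 ± 0.06 (adjusted p = 0.0031) and -0.78 ± 0.12 (adjusted p = 0.0249).

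Secreted factors were also among the lower genes: Stc1, stanniocalcin 1, at -0.99 ± 0.06 (adjusted p = 0.00289), Angpt2, a ligand of the TIE2 receptor, at -0.90 ± 0.07 (adjusted p = 0.00379), Bdnf at -0.83 ± 0.06 (adjusted p = 0.0031) and Pdgfb at -0.76 ± 0.12 (adjusted p = 0.0259). Among genes that act in lipid storage or its control, 4 picked from the calls were lower: Hilpda at -0.75 ± 0.06 (adjusted p = 0.00401), Angptl4 at -0.60 ± 0.06 (adjusted p = 0.00792), Plin2 at -0.45 ± 0.05 (adjusted p = 0.0131) and the nuclear receptor gene Pparg at -0.36 ± 0.05 (adjusted p = 0.0214). Hfe, a regulator of iron uptake that was in no list, was higher at 0.86 ± 0.06 (adjusted p = 0.00307), and so was the lymphoid and epithelial factor Gata3 at 0.78 ± 0.07 (adjusted p = 0.00672).

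The other triterpenoid, CDDO-Im at 0.05 µM, was outside the tests. The mean of its replicates 1 and 3 (replicate 2 stood apart, with a median r of 0.928) lay nearer CDDO-Me than DMF for 199 of the 233 genes higher with CDDO-Me (85.4%) and for 176 of the 302 lower genes (58.3%), against 56.3% of all genes tested. Its median distance from CDDO-Me was -0.05 over the higher genes and 0.22 over the lower ones, and its median distance from DMF was 0.42 and -0.30. With the median of its 3 arrays the shares were 86.3% and 56.3%. These are positions of levels at another dose, with no test. The called genes were chosen on the CDDO-Me and DMF arrays for a wide gap between those treatments. Their shares are therefore not directly comparable with the share of all genes.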
